A study of Mus musculus with 2 samples.

Results

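The 7 mouse genes that encode subunits of the NMDA-type glutamate receptor are Grin1, Grin2a, Grin2b, Grin2c, Grin2d, Grin3a and Grin3b. They were chosen by gene symbol and joined by gene identifier between the tables of an anterior and a posterior brain library, and all 7 were found among the 53055 genes present in both tables. They were annotated with 39 transcripts, for which only the posterior library gives values. In both libraries Grin1 and Grin2b stood highest per length, Grin2a followed, Grin2c, Grin3a and Grin2d stood lower, and Grin3b was near the limit of detection. By share of fragments, a measure with no gene length, the subunit that differed most was Grin2d, 2.23-fold higher in the posterior library. By FPKM, which depends on the length used, Grin1 differed more than Grin2d. Once FPKM differences were centred on the median gene, none of the 6 subunit genes compared passed 2-fold.

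NMDA receptors are glutamate-gated cation channels that pass calcium, open only when the membrane is depolarised enough to expel a blocking magnesium ion, and need a co-agonist, glycine or D-serine, beside glutamate. Each receptor is a tetramer that contains GluN1, the obligatory subunit encoded by Grin1, together with GluN2 or GluN3 subunits. The GluN2 subunits encoded by Grin2a to Grin2d bind glutamate and set the channel's kinetics, while the GluN3 subunits encoded by Grin3a and Grin3b bind glycine and lower calcium permeability. In the rodent forebrain GluN2B predominates early and GluN2A rises after birth. GluN2C is known from cerebellar granule cells, and GluN2D from the diencephalon, the midbrain and interneurons.

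Polyadenylated RNA was sequenced from brain tissue of wild-type male C57BL/6J mice aged 14 weeks, with 1 library from tissue matched in its anterior-posterior position to anterior MERFISH sections and 1 from tissue matched to posterior sections. MERFISH images single RNA molecules in slices of tissue. The labels name no transgene and no treatment for either library. The whole tissue block was extracted, so all cell types are mixed, and fewer cells of a type cannot be told apart from less RNA per cell. With 1 library per position no spread between animals could be measured and no test was made. Position, library and quantification pipeline cannot be told apart, and every difference given here is a difference between these 2 libraries.

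Anterior genes held 43558839 fragments (read pairs) in all, and posterior transcripts held 147138183 estimated fragments. The anterior sum is above the library size of 36521279 behind the deposited FPKM. The sources used here do not say which total that size was, or whether a read pair could count for more than 1 gene. Levels of different genes are compared within a library as FPKM, which scales fragments to the length of the gene and to the size of the library. The libraries use different lengths. Anterior FPKM was deposited on the length of all exons of a gene merged together. Posterior FPKM was computed on Salmon's effective length, which follows the transcripts estimated to be present. The size denominators also differ in kind, since posterior FPKM was divided by the full 147138183 estimated fragments. FPKM of the 2 libraries on a common length still carries that difference, while percents and ratios of FPKM within a library do not depend on it. Differences between libraries are therefore given first as the fragment share, written as CPM, the number of fragments for every 1000000 fragments in protein-coding genes, which uses no length. The log2 difference of shares was taken with a pseudocount of 0.5 and centred on the median of the 13339 protein-coding genes that reached an FPKM of 1 in at least 1 of the libraries. Ratios of shares and of levels carry exact Clopper-Pearson intervals (95%), which cover counting error only.

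Grin1 lies on the minus strand of chromosome 2, from 25291181 to 25319187 in build mm10. Alternative splicing of its RNA gives GluN1 a variable extracellular segment, N1, and variable C-terminal segments, C1 and C2 or C2'. N1 is known to lower the receptor's sensitivity to protons and zinc. C1 carries a signal that retains the protein in the endoplasmic reticulum, and C2' carries a signal for export and for binding PDZ proteins. These segments define the GluN1 isoforms whose shares are given next, so their sequences are shown, read from the GENCODE M21 transcripts, whose lengths equal those of the deposited transcripts in 39 of 39 cases. Capitals mark the segment and lower case the 15 transcript bases on its 5′ side and, except where the stop codon ends it, on its 3′ side. The N1 cassette is exon 4 of 21 in transcript Grin1-204, at chr2:25311343-25311405, 63 bases or 21 codons. The C1 cassette is exon 20 of 21 in Grin1-204, at chr2:25294438-25294548, 111 bases or 37 codons. The last exon has 2 acceptors that lie 356 bases apart. From the proximal acceptor translation reads C2, at chr2:25292368-25292484, 38 residues and a stop codon, and from the distal acceptor it reads C2', at chr2:25292060-25292128, 22 residues and a stop codon.
N1 cassette: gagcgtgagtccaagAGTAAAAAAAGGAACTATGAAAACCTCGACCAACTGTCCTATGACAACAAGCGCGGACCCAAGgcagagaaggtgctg
C1 cassette: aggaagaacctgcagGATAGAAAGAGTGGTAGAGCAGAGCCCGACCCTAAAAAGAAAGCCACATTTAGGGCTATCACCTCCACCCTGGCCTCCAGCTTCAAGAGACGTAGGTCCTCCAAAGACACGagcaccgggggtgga
C2 coding part: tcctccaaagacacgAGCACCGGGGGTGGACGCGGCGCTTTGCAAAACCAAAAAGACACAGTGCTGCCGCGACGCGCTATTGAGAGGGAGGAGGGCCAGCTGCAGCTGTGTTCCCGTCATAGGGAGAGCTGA
C2' coding part: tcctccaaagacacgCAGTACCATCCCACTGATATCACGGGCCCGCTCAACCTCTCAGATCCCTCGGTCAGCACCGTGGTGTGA

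Grin1, the obligatory subunit gene, had 16444 anterior fragments, at an FPKM of 46.4, and 64724 estimated posterior fragments, at an FPKM of 124. The gap between these FPKM values moves with the length used, which was 9700 bases of merged exons in the anterior table and an effective length of 3555 bases in the posterior library. On the posterior length the anterior FPKM was 127, and on the merged exon length the posterior FPKM was 45.3. On either common length the FPKM values were therefore close, each on its own size denominator. By share of fragments Grin1 was 1.24-fold higher in the posterior library. Of the merged exon bases of Grin1 13.5% lie under exons of Grin1os, an RNA gene on the opposite strand. Grin1os had 296 anterior and 39 posterior fragments, 1.80% and 0.0603% of the Grin1 fragments, and the sources used here do not say whether the anterior counting used strand.

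The 8 coding transcripts of Grin1 are exactly the 8 combinations of N1 present or absent, C1 present or absent and C2 or C2', and 7 of them had fragments in the posterior library. Grin1-205, which lacks N1 and C1 and ends in C2' (GluN1-4a), led with 32.7% of the FPKM of the coding transcripts. Grin1-201, with C1 and C2 and without N1 (GluN1-1a), held 25.1%. Grin1-202 (GluN1-2a), which lacks both cassettes and ends in C2, held 13.0%. The 3 leading isoforms thus all lack N1. Grin1-204, with N1, C1 and C2 (GluN1-1b), held 12.6%. Grin1-206 (GluN1-3a) held 7.64%, Grin1-203 (GluN1-2b) 6.06% and Grin1-208 (GluN1-3b) 2.97%. Grin1-207 (GluN1-4b), with N1 and C2' and without C1, was listed at 0.

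**Figure D1:**
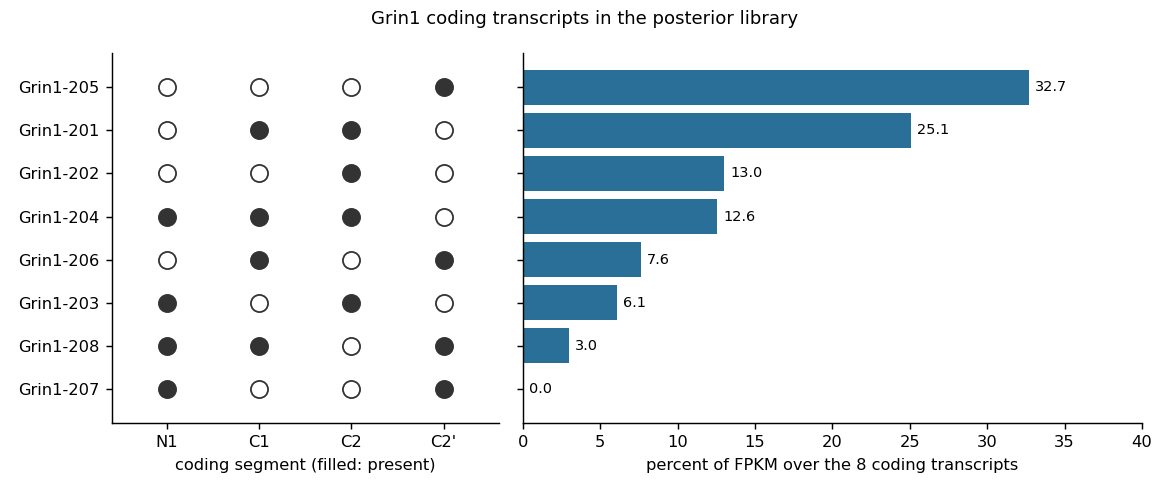
Coding transcripts of Grin1 in the posterior library. Left, filled circles mark the coding segments N1, C1, C2 and C2' that each transcript contains; right, bars give each transcript's percent of the summed FPKM of the 8 coding transcripts (1 library, no error bar). Grin1-205 stands highest at 32.7%, and the 4 transcripts with N1 lie between 0 and 12.6%.

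Summed over the coding transcripts, N1 was present in 21.6% of Grin1 FPKM, C1 in 48.3% and C2' in 43.3%. The segments were not distributed alike. C2' was found in 13.7% of FPKM with N1 and in 51.4% of FPKM without it. C1 was found in 71.9% of FPKM with N1 and in 41.7% without it. C1 was also present in 66.4% of the FPKM that ended in C2 and in 24.5% of the FPKM that ended in C2'. These associations rest on Grin1-205. It has a first exon of 559 bases that no other coding transcript shares, against 492 bases in the other 3 transcripts without N1 and 467 bases in all 4 with N1. The 5′ end and N1 are thus tied together in the annotation, and the part of the 5′ end in the estimates was not tested. With Grin1-205 left out, a choice made after its values were seen, N1 was present in 32.1%, C1 in 71.7% and C2' in 15.8% of FPKM. C2' was then found in 13.7% of FPKM with N1 and 16.7% without it, and C1 in 71.9% and 71.6%. C1 was in 66.4% of the FPKM that ended in C2 and in 100% of that which ended in C2', so the last association turned around; the only C2' transcript without C1 that was left, Grin1-207, was listed at 0.

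The other 6 Grin1 transcripts are annotated as noncoding and held 10.1% of the FPKM of the gene but 4.65% of its fragments, since several are short. Over all 14 transcripts, 6 held at least 5% of the FPKM, all of them coding. The share of the leading transcript, 29.4%, was low for a gene in this library. It lay at percentile 4.77 of 11965 genes, whose median leading share was 68.2%. Among the 919 genes with 12 to 16 annotated transcripts the median was 39.5% and Grin1 lay at percentile 22.2.

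Grin2b encodes GluN2B, the GluN2 subunit of slower channels that binds CaMKII. It lies on the minus strand of chromosome 6, from 135713233 to 136173511. It had 41463 anterior and 157991 posterior fragments, more than any other subunit gene in each library, and an FPKM of 45.7 and 58.5. On a common effective length the anterior FPKM was 61.9. The posterior fragments lay almost wholly in Grin2b-201, a transcript of 24060 bases of which the 3′ UTR makes up 18865 bases (78.4%). Grin2b-201 held 99.5% of the fragments of the gene but 76.8% of its FPKM. The remaining FPKM was mainly in Grin2b-206 (7.28%), Grin2b-203 (6.58%) and Grin2b-204 (6.28%), annotated as coding and only 601 to 703 bases long, which drew between 194 and 225 fragments each.

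Grin2a encodes GluN2A, the subunit of fast-deactivating receptors. It lies on the minus strand of chromosome 16, from 9567898 to 9995560. It had 12704 anterior and 45628 posterior fragments and an FPKM of 19.4 and 23.9, or 26.8 in the anterior library on the posterior length. As in Grin2b, a transcript with a long 3′ UTR led: Grin2a-206 has 14634 bases, of which 9929 (67.8%) are 3′ UTR, and held 87.1% of the FPKM and 96.3% of the fragments. Grin2a-202 encodes the same number of coding bases, 4392, with a 3′ UTR of 86 bases and held 2.09% of the FPKM. A further 10.6% of the FPKM, from 1354 fragments, was assigned to Grin2a-204, a retained-intron transcript of 3906 bases.

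Grin2c encodes GluN2C, whose receptors are weakly blocked by magnesium. It lies on the minus strand of chromosome 11, from 115249169 to 115267243. It had 1875 anterior and 7563 posterior fragments and an FPKM of 10.2 and 11.9. On the posterior length the anterior FPKM was 11.9 as well. Its 2 transcripts, Grin2c-202 with 51.2% and Grin2c-201 with 48.8% of the FPKM, both have 3717 coding bases and a 3′ UTR of 402 bases, and they differ at the 5′ end.

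Grin2d encodes GluN2D, the subunit with the slowest deactivation. It lies on the minus strand of chromosome 7, from 45831883 to 45878378. It had 618 anterior and 4358 posterior fragments and an FPKM of 2.54 and 6.52, and 3.73 in the anterior library on the posterior length. It was the subunit gene with the fewest fragments after Grin3b in each library. Grin2d-201 held 59.6%, Grin2d-203 28.0% and the short Grin2d-202 12.4% of the posterior FPKM. Exons of Gm45441, on the opposite strand, cover 9.66% of its merged exon bases. Gm45441 had 71 anterior and 550 posterior fragments, 11.5% and 12.6% of the Grin2d fragments. The part of fragments from Gm45441 in the Grin2d counts, and in the difference of Grin2d between the libraries, was not tested.

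Grin3a encodes GluN3A, a glycine-binding subunit that is prominent in the developing brain. It lies on the minus strand of chromosome 4, from 49661611 to 49845744. It had 2258 anterior and 8375 posterior fragments and an FPKM of 5.04 and 8.47, or 9.20 in the anterior library on the posterior length. Grin3a-201 held 71.8% and Grin3a-202 16.2% of the posterior FPKM, and the noncoding Grin3a-203 held 11.2%. Grin3a-202 differs from Grin3a-201 by an insert of 60 bases or 20 codons that keeps the reading frame and begins its last exon, at chr4:49665566-49665625. The insert is shown because it is the only coding difference between these transcripts, with capitals for the insert and lower case for the 15 bases on each side.
Grin3a insert: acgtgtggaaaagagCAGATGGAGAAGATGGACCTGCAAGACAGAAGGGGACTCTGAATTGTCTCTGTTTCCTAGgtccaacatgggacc

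Grin3b encodes GluN3B, known mainly from motor neurons. It lies on the plus strand of chromosome 10, from 79970715 to 79977190. It had 9 anterior and 61 posterior fragments, with FPKM values of 0.0748 and 0.151, above the floor of 3 fragments in both libraries but below the FPKM of 1 required for the comparison of genes. Grin3b-201 held 88.4% and Grin3b-202 11.6% of the posterior FPKM, shares that rest on 61 fragments. Of its merged exon bases 32.1% lie under exons of Tmem259 on the opposite strand, which had 3551 and 11715 fragments. The part of those fragments in the Grin3b counts was not tested.

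**Figure D2:**
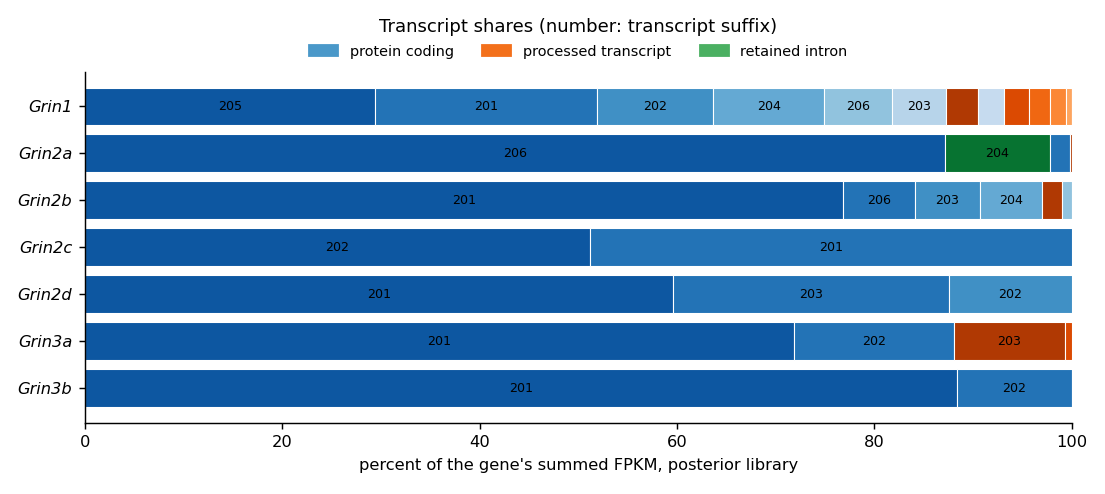
Percent of each gene's summed FPKM held by each of its transcripts in the posterior library. Segments are ordered from the largest share, the colour family gives the annotated biotype, and numbers are transcript suffixes. Grin1 is divided among the most transcripts, with a leading share of 29.4%, while in Grin2a the leading transcript holds 87.1%.

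Summed over the 7 genes, the subunit balance of the libraries was close when the same length was used for both, and differed when each library kept its own length. On the merged exon length Grin1 made up 35.9% of the summed anterior and 36.2% of the summed posterior FPKM. On the effective length it made up 52.7% and 53.1%. As deposited or computed in each library's own length, Grin1 thus went from 35.9% to 53.1%, a gap that closes on either common length. Grin2b followed the same pattern, with 35.3% and 34.5% on merged exons and 25.8% and 25.1% on the effective length. Grin2a made up 15.0% and 13.8% on merged exons, and 11.2% and 10.2% on the effective length. Grin2d went from 1.96% to 3.55% on merged exons and from 1.55% to 2.80% on the effective length. The percent of Grin3b was also higher in the posterior library on both lengths, 0.0373% against 0.0646% on the effective length, on 9 anterior fragments. The GluN3 genes together made up 3.95% of the anterior and 3.70% of the posterior FPKM on each library's own length.

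**Figure D3:**
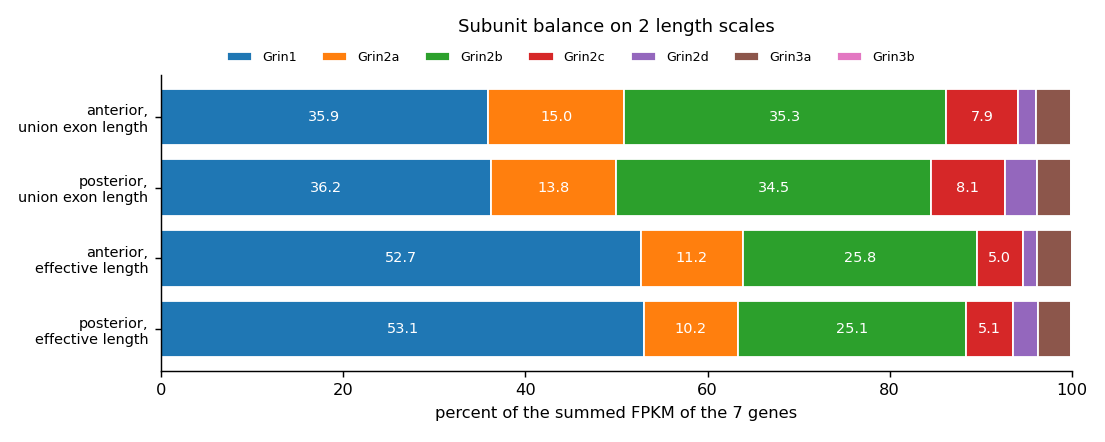
Percent of the summed FPKM of the 7 subunit genes in each gene, for each library on 2 length definitions (merged exons, labelled union exon length, and Salmon effective length). Each bar is 1 library. Grin1 takes 35.9% and 36.2% on merged exons and 52.7% and 53.1% on the effective length, while Grin3b is too small to be seen.

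The order of the levels was set within each library. In the anterior library Grin1 and Grin2b could not be told apart by counting error on the deposited FPKM, with a ratio of 1.02 (0.997 to 1.03). On the posterior effective length that anterior ratio was 2.05 (2.01 to 2.08). Below them came Grin2a, Grin2c, Grin3a, Grin2d and Grin3b. In the posterior library Grin1 was 2.11 times Grin2b (2.10 to 2.13) on the effective length and 1.05 times Grin2b (1.04 to 1.06) on the merged exon length. The rest of the order was the same as in the anterior library, but on the merged exon length Grin3a and Grin2d lay close together, at an FPKM of 4.64 and 4.45. The ratio of Grin1 to the summed GluN2 genes was 0.596 (anterior) and 0.603 (posterior) on merged exons, and 1.21 and 1.23 on the effective length. Whether transcripts of the obligatory subunit exceed those of its partners therefore depended on the length and not on the library.

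Among the GluN2 genes, Grin2b led and Grin2d was lowest in both libraries. Grin2b made up 58.7% of the summed anterior and 58.0% of the summed posterior GluN2 FPKM, each on its own length. Grin2a made up 24.9% and 23.7%, Grin2c 13.1% and 11.8%, and Grin2d 3.27% and 6.47%. The ratio of Grin2a to Grin2b, often used to follow the postnatal exchange of subunits, was 0.424 in anterior tissue (0.416 to 0.433) and 0.408 in posterior tissue (0.404 to 0.413). From fragments alone, with no length, that ratio was 0.943 times as high in the posterior as in the anterior library (0.922 to 0.964). That interval, like those of the other changes of ratios given later, was computed on the log scale from the 4 fragment numbers. It does not include 1, but it holds no variation between animals.

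**Figure D4:**
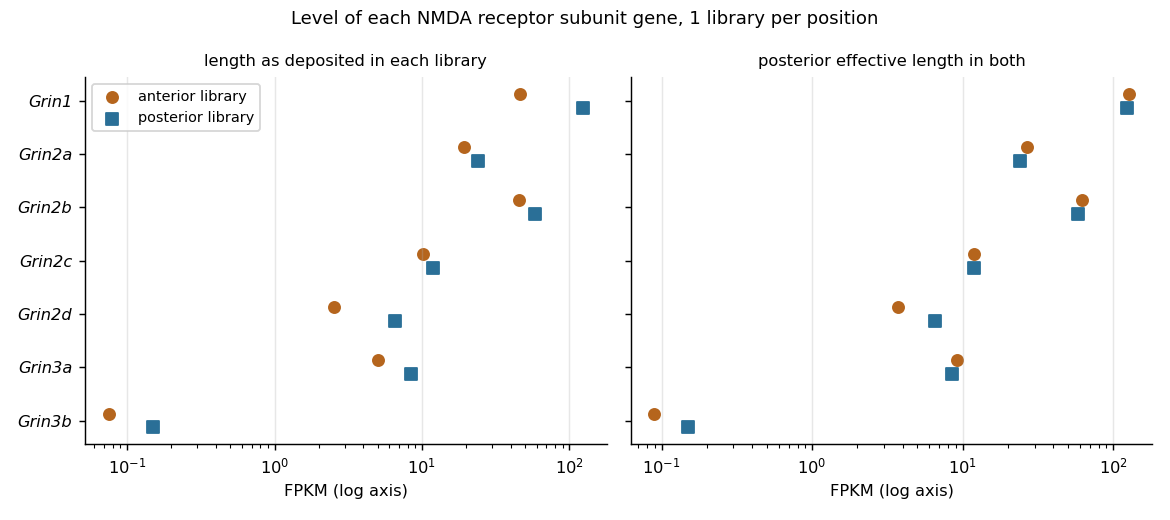
FPKM of each subunit gene in the anterior library (circles) and the posterior library (squares), 1 library each, on a log axis. Left, each library on the length of its own table. Right, both on the posterior effective length, each library on its own size denominator. There Grin1 has 127 and 124, and the clearest gap among the genes above an FPKM of 1 is that of Grin2d, 3.73 against 6.52.

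Between the libraries, the fragment share was higher in the posterior library for 6 of the 6 subunit genes compared, where centring puts the median gene at 0. On the FPKM scale, centred on its own median shift of 0.63, this held for 3 of the 6, since Grin2a, Grin2b and Grin2c changed sign. The median log2 difference was 0.29 on the share scale and -0.11 on the FPKM scale. Past 2-fold, Grin2d was the only subunit gene on the posterior side (1 of 6), and the anterior side had 0 of 6. Over all 13339 genes compared, 8.19% passed 2-fold on the posterior and 1.84% on the anterior side. On the FPKM scale 0 of the 6 passed 2-fold in either direction, where 14.5% and 7.11% of all genes did. Across genes the FPKM difference correlated at 0.63 with the ratio of anterior to posterior length, and the share difference at -0.034. These were taken over the genes among the 13339 that had posterior fragments, all from the same 2 libraries.

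Grin2d had a share of 14.6 CPM in the anterior and 32.4 CPM in the posterior tissue, 2.23-fold higher (2.05 to 2.43). Its log2 difference of 1.12 lay at percentile 93.0 of all genes compared. On the FPKM scale the log2 difference was 0.58, in the same direction and below 2-fold. Set against other subunits, which removes any common shift of the library, the ratio of Grin2d to Grin1 fragments was 1.79-fold higher in the posterior library (1.64 to 1.95) and that of Grin2d to Grin2b 1.85-fold (1.70 to 2.01). The ratio of Grin2c to Grin2d fragments was 1.75-fold higher in the anterior library (1.58 to 1.93).

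By share the other compared subunits differed less, while by FPKM the difference of Grin1 was above that of Grin2d. Grin1 had 387 anterior and 481 posterior CPM, a ratio of 1.24 (1.22 to 1.26) and a log2 difference of 0.31, or 0.78 on the FPKM scale. Grin2b had 977 and 1175 CPM, 1.20-fold (1.19 to 1.22), with a log2 difference of 0.26 that was -0.28 on the FPKM scale. Grin2a had 299 and 339, 1.13-fold (1.11 to 1.16), with 0.18 and -0.34. Grin2c had 44.2 and 56.2, 1.27-fold (1.21 to 1.34), with 0.34 and -0.41. Grin3a had 53.2 and 62.3, 1.17-fold (1.12 to 1.23), with 0.22 and 0.066. All of these lie inside the 2-fold limit, and those of Grin2a, Grin2b and Grin2c have no direction that holds on both scales. Grin3b, not among the genes compared, had 0.212 and 0.454 CPM, a ratio of 2.14 (1.06 to 4.90).

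Taken as a family, the 7 NMDA receptor genes had 1776 anterior and 2147 posterior CPM, a ratio of 1.21 (1.20 to 1.22). The 4 AMPA receptor genes, whose channels carry the fast part of glutamatergic transmission, had 1717 and 1599, a ratio of 0.931 (0.924 to 0.939). The 5 kainate receptor genes had 525 and 439, 0.835 (0.823 to 0.848), and the 2 delta receptor genes 95.4 and 101.5, 1.06 (1.03 to 1.10). The NMDA to AMPA ratio in fragments was 1.03 (anterior) and 1.34 (posterior). In FPKM it was 0.622 and 0.769 on the merged exon length in both, and 0.574 and 0.769 on the effective length in both. It was higher in the posterior library on each of these scales.

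Of the other 11 ionotropic glutamate receptor subunits, 0 passed 2-fold in either direction on the share scale, and their median was -0.23 where the median of all genes is 0 by centring. Gria2, which makes AMPA receptors impermeable to calcium, had the highest posterior FPKM of the list. It had 59.5 (anterior) and 121 (posterior) on each library's own length, and in the anterior library it lay below the 77.7 of Gria1. Its log2 difference was -0.23 on the share scale and 0.39 on the centred FPKM scale. Of 12 genes that make, transport or break down the co-agonists glycine and D-serine, 9 could be compared. Past 2-fold by share, 1 lay on the posterior and 0 on the anterior side, where 8.19% and 1.84% of all genes compared did. The median was 0.075. The gene past 2-fold was Slc6a9, the glial glycine transporter GlyT1 that keeps glycine low around NMDA receptors. It had 20.9 anterior and 80.7 posterior CPM, 3.86-fold higher (3.60 to 4.13), with log2 differences of 1.92 on the share and 2.05 on the FPKM scale. Psat1, an enzyme of serine synthesis and the most abundant of that list, had 103 and 109 CPM.

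Among 14 scaffold, trafficking and auxiliary partners, 0 passed 2-fold on the share scale, with a median of -0.21. Of all genes compared, 8.19% passed it on the posterior and 1.84% on the anterior side. Dlg4, which encodes the postsynaptic scaffold PSD-95, had the highest posterior FPKM of the list, 221, while its anterior FPKM of 66.0 was below the 183 of Grina. Its share was 753 and 638 CPM. Its log2 difference was -0.24 on the share scale and turned to 1.10 on the FPKM scale. Among 16 kinases, phosphatases and effectors coupled to the receptor, 0 passed 2-fold and the median was -0.15, which turned to 0.27 on the FPKM scale. Camk2a, the calcium-calmodulin kinase that binds GluN2B, had 2799 and 2363 CPM. Closest to the limit were Tiam1, an activator of Rac, with a ratio of 1.99 (1.92 to 2.07), and Nos1, the neuronal nitric oxide synthase, with 1.94 (1.86 to 2.03), both named after their values were seen.

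**Figure D5:**
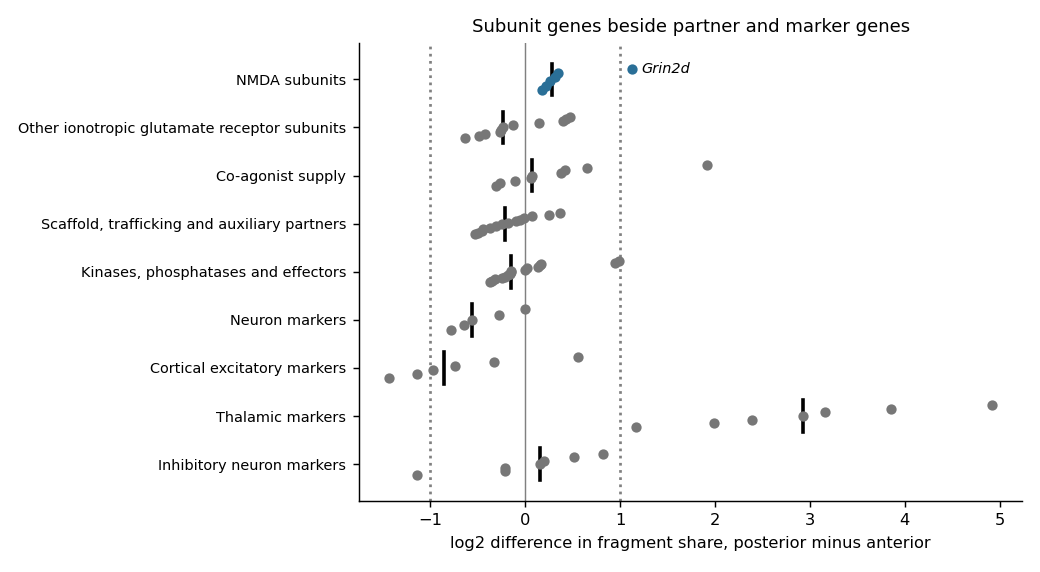
Log2 difference in fragment share, posterior minus anterior, of each compared gene of the subunit genes and of 8 partner and marker lists. Black bars are list medians, dotted lines mark 2-fold and the solid line the median of all genes. Subunit genes lie between 0.18 and 1.12 and Grin2d alone passes 2-fold; on the FPKM scale Grin2a, Grin2b and Grin2c lie below 0.

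Marker genes of regions and cell types differed between the libraries, and the part of tissue makeup in these and in the subunit values was not tested. Counts past 2-fold here are by share, where 8.19% of all genes compared passed on the posterior and 1.84% on the anterior side. General neuron markers summed to 7224 anterior and 5008 posterior CPM, with 0 of 5 past 2-fold and a median of -0.56, or 0.039 on the FPKM scale. Snap25, a protein of synaptic vesicle release and the most abundant of them, had 3116 and 1823 CPM, and its log2 difference was -0.78 on the share scale and 0.22 on the FPKM scale. Cortical excitatory markers summed to 2072 and 1255, and 2 of 6 (Fezf2 and Tbr1) passed 2-fold on the anterior side. Slc17a7, the vesicular glutamate transporter with the highest FPKM of that list, had 1540 and 927 CPM, while Rorb went the other way, with 43.1 and 63.7 CPM. Thalamic markers summed to 155 and 841 and 7 of 7 passed 2-fold on the posterior side, led by Prkcd, Tcf7l2 and Slc17a6. Hippocampal markers summed to 207 and 590 with 5 of 6 past 2-fold on that side, C1ql2, Dsp and Zbtb20 the most, while the most abundant, Wfs1, had 107 and 129 CPM and a log2 difference that was 0.27 on the share and -0.58 on the FPKM scale. Inhibitory neuron markers summed to 818 and 935, with 1 of 7, Vip, past 2-fold on the anterior side, and Sst, the most abundant, had 149 and 129 CPM. The inhibitory median was 0.15 on the share scale and -0.29 on the FPKM scale. By share the summed thalamic, hippocampal and inhibitory markers were thus higher in the posterior library, as were all compared subunit genes. The summed astrocyte and oligodendrocyte markers given below were higher there too, while the summed cortical and general neuron markers were lower. On the FPKM scale the inhibitory median and the differences of Grin2a, Grin2b and Grin2c lay below 0. Of the cerebellar granule cell markers Gabra6 had 0 fragments in both libraries and only Cbln1 could be compared, at 5.21 and 27.1 CPM. The others, Cbln3, Barhl1 and Fat2, had a posterior FPKM of 0.291, 0.0756 and 0.0197. Of the Purkinje cell markers only Car8 could be compared, at 13.3 and 9.83 CPM.

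Glial markers were measured beside Grin2c and Slc6a9, which glia also express. By share, 8.19% of all genes compared passed 2-fold on the posterior and 1.84% on the anterior side. Astrocyte markers summed to 806 and 1033 CPM, with a median of 0.45 and 1 of 5, Gfap, past 2-fold on the posterior side, while the most abundant, Slc1a3, had 449 and 417 CPM. Oligodendrocyte markers summed to 2864 and 5303 with a median of 0.83, and their precursors' markers to 107 and 152 with 0.44, each with 0 past 2-fold by share. The most abundant of each, Mbp and Pdgfra, had 1501 and 2768 CPM and 50.2 and 63.7 CPM. Microglial markers summed to 98.2 and 82.5 and endothelial markers to 169 and 156, also with 0 past 2-fold by share. Their most abundant members were P2ry12, at 32.9 and 23.3 CPM, and Itm2a, at 50.1 and 32.1 CPM. On the FPKM scale 2 of 5 astrocyte and 2 of 4 oligodendrocyte markers passed 2-fold on the posterior side, where 14.5% of all genes did. On the anterior side 1 of 3 endothelial markers passed it, where 7.11% of all genes did. The part of these cell types in the values of Grin2c and Slc6a9 was not tested.

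The coding sequences of the leading transcripts were aligned in pairs from end to end, and identity was counted over aligned bases, with gaps left out. By this measure the most alike were Grin2c and Grin2d, at 69.6%, and Grin2a and Grin2b, at 67.7%. The least alike were Grin2d and Grin3a, at 60.1%. The range is narrow, with Grin1 and Grin2a at 67.1%, so it does not rank how closely the genes are related. GC content of the coding sequence ranged from 50.8% in Grin2a to 67.3% in Grin2d. Stretches of 31 bases in a gene's transcripts were also sought in transcripts of other genes, in either orientation. Overlap with a gene on the opposite strand therefore counts as shared, and in Grin3b the only such gene was Tmem259. The part shared was 0% in Grin3a, 1.02% in Grin2b, 1.38% in Grin2c, 8.65% in Grin2d, 10.7% in Grin1, 12.1% in Grin2a and 27.0% in Grin3b. The sources used here do not say how the anterior counting assigned fragments from shared stretches.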

How the data were processed

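Anterior values were deposited as FPKM per gene with gene lengths, after alignment with HISAT2 2.0.5 to mm10, per the submitters' processing notes. The sources used here do not give the counting program, its annotation or its use of strand. In 100% of genes the product of FPKM and gene length held a whole number of steps of 27.4 (tolerance 0.001), which gave whole fragments. The gene lengths equal merged exon lengths of GENCODE M21 for 98.0% of matched genes and for all 7 subunit genes. Posterior values were deposited as estimated counts, TPM and effective lengths per transcript, made with Salmon against a GENCODE set, per the labels' protocols. The deposited TPM values sum to 1000000 and were used only for that check.

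Posterior FPKM was computed from estimated counts, effective length and their total, and summed over transcripts. Genes were joined by identifier without version, holding 99.9% of anterior fragments. Balance is the percent of summed FPKM over the 7 genes, and ratios carry exact Clopper-Pearson intervals from SciPy 1.17.1, except changes of a ratio between libraries, whose intervals are normal on the log scale. Estimated counts were rounded for intervals. Without molecular identifiers fragments need not be separate molecules, so intervals and the floor of 3 fragments cover counting error only; transcript shares carry none. The scripts were tested on simulated counts.

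The subunit genes, partner lists and marker lists were chosen with earlier results of these data known; 1 gene of the cortical list is not reported here and was left out of its values. Genes named are all subunit genes, transcripts with at least 5% of their gene's FPKM, and from each list the gene with the highest FPKM reached in either library (called most abundant) and up to 3 that passed 2-fold by the most; any others are given as marked or for a comparison. The alternatives tried were the FPKM scale, pseudocounts of 0.1 and 1, no centring, other totals, filters and lengths, and coding transcripts alone.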

Additional observations from a re-analysis of the deposited data

How the results depend on the processing

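No paired analysis was possible because each position has 1 library. On the FPKM scale 0 of the 6 compared subunit genes passed 2-fold on the posterior side in place of 1. The partner and other receptor lists had 11, 9, 14 and 16 compared genes. Of these, 4 passed 2-fold on the posterior and 3 on the anterior side in place of 1 and 0. Over all genes compared, 14.5% and 7.11% passed it on the FPKM scale, in place of 8.19% and 1.84%. At an FPKM of at least 5 the posterior count of partner and other receptor genes was 2, and the Purkinje list gave no value. The counts of subunit genes were the same at pseudocounts of 0.1 and 1, with no filter and at an FPKM of at least 5. The FPKM scale moved the log2 difference of 7 of 7 subunit genes past the counting interval and the medians of 4 of 16 lists by 0.5 or more. By construction FPKM brings in the length and the share does not.

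Balance depended on the length. In the anterior library the ratio of Grin2a to Grin2b was 0.306, that of Grin1 to Grin2b 0.397 and the Grin1 percent 21.8 in fragments with no length, and 0.433, 2.05 and 52.7 on the posterior effective length, an alternative added after seeing the data. In the posterior library these were 0.400, 1.05 and 36.2 on the anterior gene length, 0.451, 2.18 and 52.9 on the annotated transcript length, 0.372, 1.94 and 51.5 with protein-coding transcripts alone, and 0.289, 0.410 and 22.4 in fragments.

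The Grin1 shares with N1, C1 and C2' were 22.4%, 49.7% and 40.9% of estimated fragments, and 32.1%, 71.7% and 15.8% with Grin1-205 left out, also added after seeing the data. Why Salmon placed fragments on Grin1-205 was not tested. Depth limits Grin3b, with 9 anterior fragments, and the absence of replicates limits every difference.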
